A study of Homo sapiens with 40 samples.

Results

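Expression of 10 genes of the Wnt signaling pathway was followed in U2OS and hTERT-RPE1 cells after siRNA treatment. The genes were DKK1, DKK3, SFRP1, FRZB, WIF1, WNT5A, LRP6, AXIN2, LEF1 and TCF7. They were selected by their Ensembl identifiers from a table of 22069 genes, and all 10 had a value on every array. DKK1 was chosen by a measured value. This is taken here to be its log2 rise in U2OS cells after CASP8AP2 siRNA on days 2 and 3. Statements below on the choice of DKK1 rest on that. Its values under CASP8AP2 siRNA in U2OS cells are therefore given below as a description with no test. The other 9 genes were chosen for their place in the pathway, with earlier results of these data known.

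The study compared a tumor line with a normal line after loss of regulators of histone genes. U2OS is an osteosarcoma line, and hTERT-RPE1 cells derive from normal retinal pigment epithelium and were immortalized with telomerase. Per the study's methods U2OS cells grew in DMEM. The hTERT-RPE1 cells grew in a mix of DMEM and another medium, with hygromycin B added. Line and medium therefore cannot be told apart in any difference between the lines. Cells were transfected at 15 nM with siRNA pools for CASP8AP2, NPAT or HINFP or a negative control, and RNA from the whole culture was hybridized to 40 Affymetrix arrays in 16 groups. On days 1 and 2, each line had 3 arrays with control siRNA and 3 with CASP8AP2 siRNA. On day 3, each line had 2 arrays with each of control, CASP8AP2, NPAT and HINFP siRNA. Every group, controls included, had gone through transfection, and the study's methods describe duplicates transfected at the same time. The labels call the replicates biological but name no separate transfections, so the p-values measure the spread between these arrays. Days 1 and 2 (24 arrays) and day 3 (16 arrays) are taken here to have been normalized apart, so no level was compared across these sets. Where a range spans both sets, it is a description only. Each gene is read by its own probes, so no test compared levels between genes. The place of a gene in the array range is given as a rough description only.

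Wnt ligands are secreted proteins that bind Frizzled receptors and the co-receptors LRP5 and LRP6. In cells without a ligand, a destruction complex built on AXIN proteins marks beta-catenin for degradation. With a ligand the complex is disabled, beta-catenin enters the nucleus, and factors of the TCF/LEF family turn on target genes. Several targets, among them AXIN2, NKD1, LEF1 and DKK1, act on the pathway themselves. Secreted inhibitors work from outside: DKK1 binds LRP5 and LRP6, while SFRP1, FRZB and WIF1 bind Wnt ligands. Each array holds RNA of all cells of a well, so fewer cells of a kind and less RNA per cell cannot be told apart. In bone the pathway favors the osteoblast lineage, and DKK1 is a known brake on bone formation.

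The arrays had mean log2 values of 6.00 to 6.05 on days 1 and 2 and of 5.85 to 5.88 on day 3. The authors' normalization brings the arrays of a set to a like distribution, so these means do not measure quality. Replicates of a group correlated at 0.996 to 0.998 and at 0.995 to 0.997 in the same sets, and no pair of arrays was identical. The targeted gene was lowered in all 10 comparisons with control siRNA, to between 30.1% and 59.1% of its control level, with no overlap between groups and a highest adjusted p of 0.00263 (limma). More was left in hTERT-RPE1 than in U2OS cells each time. For CASP8AP2 on days 1, 2 and 3 it was 55.5%, 59.1% and 58.7% against 40.6%, 30.1% and 44.3%. For NPAT it was 40.3% against 33.3%, and for HINFP 48.4% against 32.0%. Depth of knockdown thus also differs wherever effects are compared between the lines, and its part was not tested. Of 28 markers of retinal pigment epithelium, osteoblasts, blood and endothelium, 9 could be matched to a row of the table. RLBP1 and BEST1, which mark retinal pigment epithelium, were low in hTERT-RPE1 cells, between 3.55 and 4.51 on the log2 scale in all arrays. The osteoblast genes IBSP and COL1A2 were low in U2OS cells, between 3.45 and 4.75, whereas RUNX2, the master factor of that lineage, was higher in hTERT-RPE1 than in U2OS cells on every array (9.34 to 9.75 against 7.17 to 8.36 on days 1 and 2, and 8.62 to 9.84 against 7.44 to 8.07 on day 3). CD14, CD3E, CDH5 and VWF, which mark blood cells and endothelium, lay between 2.98 and 4.57 in both lines. Apart from RUNX2, the markers of the tissues of origin that could be read were low in both lines, and the lines are called by their names.

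The region before the transcription start is shown for the 3 genes whose levels moved with an siRNA in U2OS cells in a call that no alternative ended, DKK1, LEF1 and WNT5A. The calls of DKK1 used control arrays that had also served in its choice. The sequences are those of RefSeq (GRCh38.p14), 250 bases long, given 5′ to 3′ on the strand of the gene. Promoter entries were matched for 6 of the 10 genes (8 windows). No entry was matched for DKK3, SFRP1, AXIN2 and LRP6. DKK1 lies on the plus strand of chromosome 10, and its window is chr10:52314031-52314280. Capitals mark the TATA box (TATAAA), whose first base stands 30 bases before the start. They also mark a form of the TCF/LEF motif (CTTTGAA), 95 bases before the start. LEF1 lies on the minus strand of chromosome 4 (chr4:108166302-108166551). WNT5A lies on the minus strand of chromosome 3, and the window of the start farther upstream is shown (chr3:55487307-55487556). Neither of the latter holds a searched motif, so they have no capitals.
DKK1: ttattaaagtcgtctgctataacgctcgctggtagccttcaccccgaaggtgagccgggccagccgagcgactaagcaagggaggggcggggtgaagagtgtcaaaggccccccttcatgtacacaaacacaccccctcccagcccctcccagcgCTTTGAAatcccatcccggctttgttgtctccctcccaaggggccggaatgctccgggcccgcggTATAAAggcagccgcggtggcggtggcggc
LEF1: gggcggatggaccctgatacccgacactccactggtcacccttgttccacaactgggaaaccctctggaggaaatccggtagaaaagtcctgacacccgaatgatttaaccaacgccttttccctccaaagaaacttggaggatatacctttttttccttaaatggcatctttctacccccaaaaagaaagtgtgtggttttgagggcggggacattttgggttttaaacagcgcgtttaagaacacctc
WNT5A: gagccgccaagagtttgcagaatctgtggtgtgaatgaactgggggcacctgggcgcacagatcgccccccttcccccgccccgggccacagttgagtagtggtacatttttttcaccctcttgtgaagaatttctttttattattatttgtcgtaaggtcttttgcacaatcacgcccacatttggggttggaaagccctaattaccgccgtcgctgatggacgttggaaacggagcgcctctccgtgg
Both strands of the 8 windows were searched for these motifs. CTTTGAT is the classical TCF/LEF motif and was in none of the 8, and was in 2.26% of all 35114 promoter windows of this length. CTTTGAA, a form that was added to the search after the DKK1 sequence had been read, was in the DKK1 window only, and in 3.8% of all windows. TATAAA was in the DKK1 window and, on the opposite strand, in 1 of the TCF7 windows, and in 10.7% of all windows. GC content was 62.8% in the DKK1 window and 47.6% in the LEF1 window. A match is a stretch of letters and not a site shown to be bound.

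There were 10 comparisons of an siRNA with the control of its line and day, with an adjusted p under 0.05 over all 22069 genes as the threshold. In hTERT-RPE1 cells, CASP8AP2 siRNA changed 0 of the 10 genes on day 1 by limma (0 also at an unadjusted p under 0.05), where 0.793% of all genes passed. On day 2 it changed 1 of 10 (LEF1, lower, 6.4% of all genes), and on day 3 again 1 of 10 (LEF1, lower, 6.15%). On day 3, NPAT siRNA changed 1 of 10 (DKK1, higher, 5.04%) and HINFP siRNA 2 of 10 (LRP6 higher and LEF1 lower, 4.15%). In U2OS cells DKK1 had no test under CASP8AP2 siRNA, and 9 genes were tested. Of these, 0 passed on day 1 by limma (3 at an unadjusted p under 0.05, 5.87% of all genes passed), 1 on day 2 (LEF1, higher, 24.9%) and 2 on day 3 (AXIN2 higher and WNT5A lower, 18.9%). NPAT siRNA changed 1 of 10 in U2OS cells (DKK1, higher, 8.13%), and HINFP siRNA changed 2 of 10 (DKK1 higher and WNT5A lower, 9.43%). The U2OS control arrays of day 3 also served in the choice of DKK1, so its calls there are not independent of that choice. With so few genes a count of 1 or 2 is near these shares, and nothing particular to the set is read from it.

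The median log2 fold change of the 10 genes, DKK1 included, lay between -0.11 and 0.0015 in the 5 comparisons in hTERT-RPE1 cells, and between -0.034 and 0.15 in the 5 in U2OS cells. The medians of all genes lay between -0.032 and -0.0040 and between -0.012 and 0.015. In each line the day 3 comparisons share 2 control arrays, so they are set side by side and not counted as repeats of each other. Of the 11 gene values that passed against control, 4 passed under all 9 alternatives and with each array left out. They were DKK1 under NPAT and HINFP siRNA, LEF1 under CASP8AP2 siRNA on day 2 and WNT5A under HINFP siRNA, all in U2OS cells. Both DKK1 values used control arrays that had also served in its choice, so they are not independent of it. Precision is limited by how few arrays a group holds, and over all genes the median standard error of a log2 difference was 0.087 on days 1 and 2 and 0.11 on day 3.

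**Figure D1:**
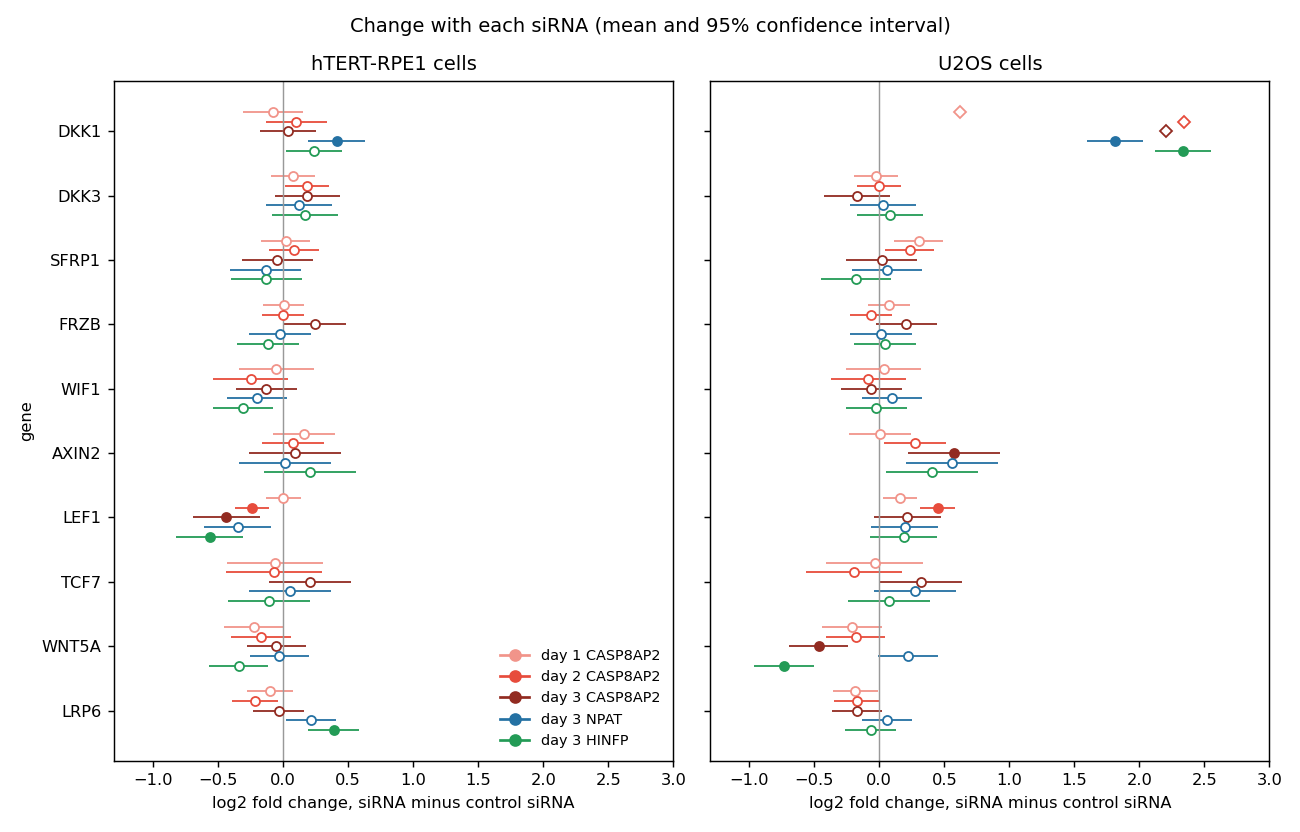
Log2 fold change of the 10 genes against control siRNA in hTERT-RPE1 (left) and U2OS cells (right), with bars for 95% confidence intervals. Filled circles passed the adjusted p threshold of 0.05, open circles did not, and open diamonds are DKK1 under CASP8AP2 siRNA in U2OS cells, which had no test and has no bar. DKK1 in U2OS cells lies at 1.81 to 2.34 on days 2 and 3, above every value of the other 9 genes. The CASP8AP2 values in this range served in the choice of DKK1, so its place is not independent of that choice.

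DKK1 (ENSG00000107984_at), the secreted inhibitor that blocks LRP5 and LRP6, rose in U2OS cells under NPAT and under HINFP siRNA and stood high in hTERT-RPE1 cells throughout. In U2OS cells on day 1 its log2 level was 5.95, 5.64 and 5.69 with control siRNA, and 6.53, 6.32 and 6.31 with CASP8AP2 siRNA. On day 2 it was 5.30, 5.34 and 5.55 with control siRNA, and 7.68, 7.72 and 7.81 with CASP8AP2 siRNA. On both days all 3 arrays with CASP8AP2 siRNA were above all 3 control arrays. The log2 differences were 0.62 on day 1 and 2.34 on day 2, which is 1.54-fold and 5.06-fold. The day 2 value was the 15th largest rise among 22069 genes, which describes how the gene was chosen. The control level was 0.37 lower on day 2 than on day 1 on the log2 scale (-0.37), which is a description with no test, since the day 2 control arrays were part of the values that chose DKK1. The control means were above 51.8% and 47.6% of all genes on days 1 and 2.

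On day 3 the 2 control arrays of U2OS cells read 4.73 and 4.72 for DKK1, and their mean was above 43.6% of all genes. CASP8AP2 siRNA gave 6.83 and 7.04, NPAT siRNA gave 6.48 and 6.60, and HINFP siRNA gave 7.00 and 7.13. Every array of the 3 treated groups was above both controls, and the HINFP and CASP8AP2 ranges overlapped, while the NPAT arrays were below both. The log2 difference was 2.21 with CASP8AP2 siRNA (4.62-fold, no test). It was 1.81 with NPAT siRNA (95% confidence interval 1.60 to 2.03, 3.51-fold, adjusted p 8.56e-07, limma, n = 2), the 13th largest rise in the table. It was 2.34 with HINFP siRNA (2.12 to 2.55, 5.05-fold, adjusted p 2.04e-08, limma, n = 2), the 17th largest rise. Both passed under all 9 alternatives and with each array left out, with adjusted p up to 0.000922 for NPAT and 0.000525 for HINFP. The 2 control arrays in these tests were also part of the comparison for which DKK1 was chosen, so the tests are not independent of that choice. A comparison that uses no control array set DKK1 under HINFP siRNA 0.52 above DKK1 under NPAT siRNA (SE 0.10, adjusted p 0.0115, limma, n = 2). That call was lost when only the compared groups were fitted (adjusted p 0.0816), without NPAT replicate 1 (0.46) and without HINFP replicate 2 (0.46), and its adjusted p ranged from 0.00659 to 0.107.

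**Figure D2:**
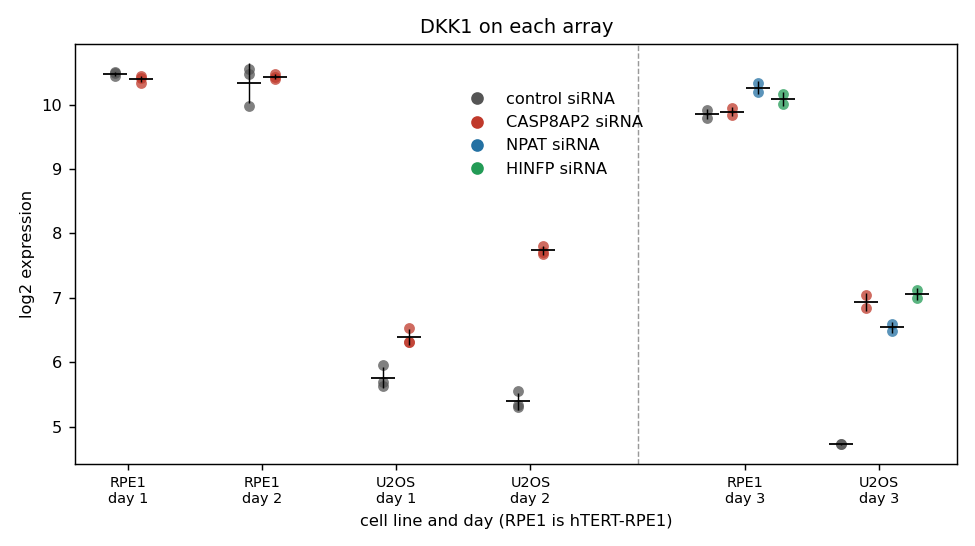
Log2 expression of DKK1 on each of 40 arrays (points), with group means (horizontal marks) and SD (vertical lines), by cell line and day. The dashed line parts days 1 and 2 from day 3, which are taken to have been normalized apart. All U2OS arrays lie between 4.72 and 7.81, and all hTERT-RPE1 arrays between 9.79 and 10.55.

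In hTERT-RPE1 cells DKK1 was near the top of the array range, above at least 94.2% of all genes in each group mean. On day 1 it read 10.49, 10.44 and 10.51 with control siRNA and 10.44, 10.34 and 10.42 with CASP8AP2 siRNA. On day 2 it read 9.98, 10.55 and 10.48 with control siRNA and 10.47, 10.44 and 10.40 with CASP8AP2 siRNA. The log2 differences of -0.08 and 0.10 did not pass (adjusted p 0.904 and 0.703, limma), and day 2 control replicate 1 stood apart from the other 2 arrays of its group. On day 3 the arrays read 9.91 and 9.79 with control, 9.94 and 9.84 with CASP8AP2, 10.33 and 10.19 with NPAT, and 10.01 and 10.17 with HINFP siRNA. NPAT siRNA raised DKK1 by 0.41 (SE 0.10, adjusted p 0.0346, limma, n = 2). This call was lost when only the compared groups were fitted (adjusted p 0.157), under array weights (0.058), and without any 1 of the 4 arrays (0.47 and 0.35 without control replicates 1 and 2, 0.34 and 0.48 without NPAT replicates 1 and 2), with adjusted p from 0.017 to 0.248. With CASP8AP2 siRNA the difference was 0.04 (adjusted p 0.888, limma) and with HINFP siRNA it was 0.24 (adjusted p 0.214, limma).

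The response of DKK1 differed between the lines. The difference of effects, U2OS minus hTERT-RPE1, was 1.40 for NPAT siRNA (SE 0.14, adjusted p 0.000339, limma) and 2.10 for HINFP siRNA (SE 0.14, adjusted p 5.33e-06, limma). Both passed under every alternative and without each array, with adjusted p up to 0.00275 and 0.000627. The U2OS control arrays in these tests, and in each alternative, also served in the choice of DKK1. These tests are therefore not independent of that choice. Of the 10 genes tested for NPAT siRNA, 1 differed between the lines (3.46% of all genes), and for HINFP siRNA 2 of 10 did (3.15%), DKK1 and LEF1. For CASP8AP2 siRNA the DKK1 differences of 0.70, 2.24 and 2.17 on days 1, 2 and 3 are given with no test. The high place of DKK1 in the array range in hTERT-RPE1 cells moves with this difference, and its part in it was not tested. The targeted genes were also lowered less in hTERT-RPE1 cells, and the part of this was not tested.

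Across the 8 groups of days 1 and 2, the 4 hTERT-RPE1 groups led in DKK1 and overlapped their neighbors. They were followed by U2OS with CASP8AP2 siRNA on day 2 (7.73 ± 0.06, SD, n = 3) and on day 1 (6.39 ± 0.12), then control on day 1 (5.76 ± 0.17) and on day 2 (5.39 ± 0.13), with no overlap between these neighbors. On day 3 the order in hTERT-RPE1 cells was NPAT, HINFP, CASP8AP2 and control, of which only CASP8AP2 and control overlapped. In U2OS cells it was HINFP (7.06 ± 0.09, SD, n = 2), CASP8AP2 (6.94 ± 0.14), NPAT (6.54 ± 0.08) and control (4.73 ± 0.01), of which only HINFP and CASP8AP2 overlapped.

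The other secreted inhibitors did not pass against control in any of the 10 comparisons. DKK3 (ENSG00000050165_at), a relative of DKK1 that is not a strong LRP6 ligand, had log2 fold changes between -0.17 and 0.19. Its hTERT-RPE1 level on day 2 was 11.01, 10.67 and 10.62 with control siRNA and 10.90, 10.86 and 11.07 with CASP8AP2 siRNA. Control replicate 1 was again apart from its group. Without that array the difference of 0.18 (adjusted p 0.231, limma) became 0.30 and passed (adjusted p 0.00965, 0.00965 to 0.593 over the alternatives), and the difference of effects between the lines became -0.30 (adjusted p 0.0415) in place of -0.18 (adjusted p 0.387).

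SFRP1 (ENSG00000104332_at), which binds Wnt ligands through a Frizzled-like domain, had values between -0.18 and 0.30. The largest was in U2OS cells under CASP8AP2 siRNA on day 1, where controls read 7.00, 6.84 and 6.92 and treated arrays 6.98, 7.31 and 7.38. The groups overlapped through the lowest treated array, and the difference of 0.30 missed the threshold (adjusted p 0.0564, limma). It passed under 5 of the 9 alternatives and without CASP8AP2 replicate 1 (0.42), with adjusted p from 0.00496 to 0.236. On day 2 the difference was 0.23 (adjusted p 0.0717, 0.0124 to 0.381 over the alternatives), and on day 3 it was 0.02.

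FRZB (ENSG00000162998_at) and WIF1 (ENSG00000156076_at), further binders of Wnt ligands, were near the bottom of the array range. FRZB means ran from 3.28 to 4.01 and were above 14.2% to 30.7% of all genes, and WIF1 means ran from 3.16 to 3.63 and were above 8.51% to 22.1%. Differences against control were between -0.11 and 0.25 for FRZB and between -0.31 and 0.10 for WIF1. Near the bottom of the range a fold change on an array is smaller than in the cell, so changes of these genes may not be detectable here.

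WNT5A (ENSG00000114251_at), a ligand best known for beta-catenin-independent signaling, fell in U2OS cells on day 3 under CASP8AP2 and HINFP siRNA. Control arrays read 5.37 and 5.14, CASP8AP2 arrays 4.71 and 4.86, NPAT arrays 5.53 and 5.41, and HINFP arrays 4.59 and 4.45. Both HINFP arrays were below all others, and both NPAT arrays were above all others. The control and HINFP means were above 49.3% and 40.4% of all genes. The log2 difference was -0.73 with HINFP siRNA (95% confidence interval -0.96 to -0.50, adjusted p 0.000927, limma, n = 2), with adjusted p up to 0.03 over the alternatives. It was -0.47 with CASP8AP2 siRNA (adjusted p 0.00809, limma), a call lost when only the compared groups were fitted (adjusted p 0.0568), without control replicate 1 (-0.35) and without CASP8AP2 replicate 1 (-0.40), with adjusted p from 0.00296 to 0.0954. With NPAT siRNA it was 0.22 and did not pass (adjusted p 0.248, limma).

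The siRNAs differed in this gene when set against each other without the controls. HINFP minus NPAT was -0.95 in U2OS cells (SE 0.11, adjusted p 0.000327, limma), with adjusted p up to 0.0245 over the alternatives, and was the 31st largest fall in the table. NPAT minus CASP8AP2 was 0.69 (adjusted p 0.00332, limma), a call lost when only the compared groups were fitted (0.0684). HINFP minus CASP8AP2 was -0.27 (adjusted p 0.176, limma). WNT5A and DKK1 were the 2 of 10 genes that differed between HINFP and NPAT siRNA in U2OS cells (4.04% of all genes), in opposite directions, and WNT5A was the 1 of 9 that differed between NPAT and CASP8AP2 siRNA (3.5%). No gene of the 9 passed for HINFP against CASP8AP2 siRNA there by limma (2 at an unadjusted p under 0.05, 5.6%).

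In hTERT-RPE1 cells WNT5A values against control lay between -0.34 and -0.03 and did not pass. The largest was with HINFP siRNA (adjusted p 0.0901, 0.0489 to 0.37 over the alternatives), where arrays read 7.19 and 7.30 against 7.48 and 7.69 in controls. On days 1 and 2 the CASP8AP2 arrays were below all control arrays, by 0.23 and 0.17 on the log2 scale (-0.23 and -0.17, adjusted p 0.533 and 0.45, limma). In U2OS cells under CASP8AP2 siRNA the values were -0.21 on day 1 (adjusted p 0.342, limma) and -0.18 on day 2 (adjusted p 0.274, limma), with overlapping arrays. Without CASP8AP2 replicate 3 the day 1 value was -0.38 and passed (adjusted p 0.0195, 0.0195 to 0.808 over the alternatives).

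LRP6 (ENSG00000070018_at), the Wnt co-receptor that DKK1 binds, changed in hTERT-RPE1 cells under HINFP siRNA. On day 3 the arrays read 8.78 and 8.71 with control, 8.65 and 8.77 with CASP8AP2, 9.01 and 8.92 with NPAT and 9.13 and 9.14 with HINFP siRNA. The NPAT and HINFP arrays were above the other 4, and the difference was 0.39 with HINFP siRNA (SE 0.09, adjusted p 0.0316, limma, n = 2) and 0.22 with NPAT siRNA (adjusted p 0.201, limma). The HINFP call was lost when only the compared groups were fitted (0.185), under array weights (0.0709) and without any of the 4 arrays, where the difference was between 0.35 and 0.42 and adjusted p reached 0.153. HINFP minus CASP8AP2 was 0.42 (adjusted p 0.0184, limma), the 1 call among 10 genes in that comparison (3.81% of all genes). It was lost when only the compared groups were fitted (0.0976) and without any of its 4 arrays (0.36 and 0.49 without CASP8AP2 replicates 1 and 2, 0.42 without either HINFP replicate). The other comparisons of siRNAs in hTERT-RPE1 cells gave 0 calls among the 10 by limma, with 3 at an unadjusted p under 0.05 for NPAT against CASP8AP2 (2.38% of all genes passed) and 1 for HINFP against NPAT (3.63%). In U2OS cells LRP6 differed from control by -0.18 to 0.06, and no value passed.

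AXIN2 (ENSG00000168646_at), a scaffold of the destruction complex and a widely used target gene of beta-catenin, rose in U2OS cells on day 3 under CASP8AP2 siRNA. Control arrays read 5.52 and 5.77, CASP8AP2 arrays 6.27 and 6.17, NPAT arrays 6.31 and 6.09, and HINFP arrays 6.03 and 6.08. All 6 treated arrays were above both controls, and only the CASP8AP2 difference passed the threshold. It was 0.57 (SE 0.16, adjusted p 0.027, limma, n = 2), with NPAT at 0.56 (adjusted p 0.0556) and HINFP at 0.41 (adjusted p 0.154). The CASP8AP2 call held in the other alternatives and was lost without control replicate 1 (0.45), CASP8AP2 replicate 1 (0.52) or CASP8AP2 replicate 2 (0.62), with adjusted p up to 0.193. The NPAT value passed under 4 of the 9 alternatives (adjusted p 0.0136 to 0.345 over all). On day 2 the U2OS difference was 0.28 (adjusted p 0.0877, 0.0196 to 0.387 over the alternatives, of which 2 of 9 passed), and control and treated arrays overlapped. In hTERT-RPE1 cells AXIN2 values lay between 0.01 and 0.20, and no difference of effects between the lines passed.

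LEF1 (ENSG00000138795_at), a DNA-binding partner of beta-catenin, moved in opposite directions in the 2 lines on day 2. In U2OS cells on day 2 it read 9.35, 9.35 and 9.39 with control siRNA and 9.82, 9.77 and 9.83 with CASP8AP2 siRNA. In hTERT-RPE1 cells on that day it read 9.54, 9.35 and 9.39 with control siRNA and 9.24, 9.19 and 9.12 with CASP8AP2 siRNA. The groups did not overlap in either line, and the treated arrays were the higher ones in U2OS and the lower ones in hTERT-RPE1 cells. The rise in U2OS cells was 0.45 (SE 0.06, 95% confidence interval 0.32 to 0.58, adjusted p 1.46e-05, limma, n = 3) and passed in all alternatives, with adjusted p up to 0.00115. The fall in hTERT-RPE1 cells was 0.24 on the log2 scale (-0.24, adjusted p 0.0242, limma) and was lost in 4 alternatives and without control replicate 1 (-0.19), CASP8AP2 replicate 2 (-0.24) or CASP8AP2 replicate 3 (-0.21), with adjusted p from 0.00501 to 0.212. The difference between the lines was 0.69 (SE 0.09, adjusted p 2.41e-05, limma), with adjusted p up to 0.00113 over the alternatives, and LEF1 was the 1 of 9 tested genes to pass there (9.39% of all genes).

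In control U2OS cells LEF1 fell by 0.46 from day 1 to day 2 (adjusted p 3.92e-05, limma), and with CASP8AP2 siRNA it went from 9.98 ± 0.03 to 9.81 ± 0.03 (SD, n = 3). On day 1 the difference from control was 0.16 (adjusted p 0.16, limma). The change of the effect from day 1 to day 2, 0.29, missed the threshold (adjusted p 0.0583, limma), and passed under 5 of the 9 alternatives and without day 1 control replicate 2, with adjusted p from 0.0166 to 0.145. In that comparison 0 of 9 genes passed by limma (1 at an unadjusted p under 0.05, 7.04% of all genes passed), and the same comparison in hTERT-RPE1 cells gave 0 of 10 (1 at an unadjusted p under 0.05, 0.652%).

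On day 3 in hTERT-RPE1 cells LEF1 read 8.83 and 8.51 with control, 8.20 and 8.26 with CASP8AP2, 8.31 and 8.33 with NPAT and 7.97 and 8.24 with HINFP siRNA. All 6 treated arrays were below both controls. The difference was -0.44 with CASP8AP2 (adjusted p 0.0469), -0.35 with NPAT (adjusted p 0.119) and -0.56 with HINFP siRNA (adjusted p 0.0219, all limma, n = 2). The CASP8AP2 call was lost in 6 alternatives and without control replicate 1 (-0.28), CASP8AP2 replicate 1 (-0.41) or replicate 2 (-0.47), and its adjusted p ranged from 0.0018 to 0.253. The HINFP call was lost when only the compared groups were fitted (0.19), without control replicate 1 (-0.41) and without HINFP replicate 1 (-0.42), and its adjusted p ranged from 0.000181 to 0.19. Without control replicate 2 the NPAT value was -0.51 and passed (adjusted p 0.0482, 0.0139 to 0.447 over the alternatives).

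In U2OS cells on day 3 the LEF1 differences were 0.22, 0.20 and 0.19 with CASP8AP2, NPAT and HINFP siRNA. All 6 treated arrays were above both controls, and no difference passed. The difference of effects between the lines was 0.65 for CASP8AP2 (adjusted p 0.0288), 0.54 for NPAT (adjusted p 0.0956) and 0.75 for HINFP siRNA (adjusted p 0.0305, all limma). LEF1 was the 1 of 9 tested genes to pass for CASP8AP2 siRNA on day 3 (9.55% of all genes). Both calls were lost when only the compared groups were fitted (0.0686 and 0.107) and without hTERT-RPE1 control replicate 1 (0.50 and 0.59), U2OS control replicate 1 (0.67 and 0.77) or U2OS control replicate 2 (0.64 and 0.74). The CASP8AP2 call was also lost without hTERT-RPE1 CASP8AP2 replicate 1 (0.62) or 2 (0.69) or U2OS CASP8AP2 replicate 1 (0.57), with adjusted p up to 0.115. The HINFP call was also lost without hTERT-RPE1 HINFP replicate 1 (0.61) or U2OS HINFP replicate 1 (0.67) or 2 (0.83), with adjusted p up to 0.11. On day 1 no member differed in its effect between the lines by limma (0 of 9, 1 at an unadjusted p under 0.05, 0.689% of all genes passed).

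TCF7 (ENSG00000081059_at), another factor of the TCF/LEF family, did not pass in any comparison with control, with log2 fold changes between -0.19 and 0.32. The largest was in U2OS cells under CASP8AP2 siRNA on day 3, where arrays read 5.00 and 5.01 against 4.83 and 4.53 in controls (adjusted p 0.158, limma). Its SD within a group reached 0.38, in hTERT-RPE1 controls on day 2.

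**Figure D3:**
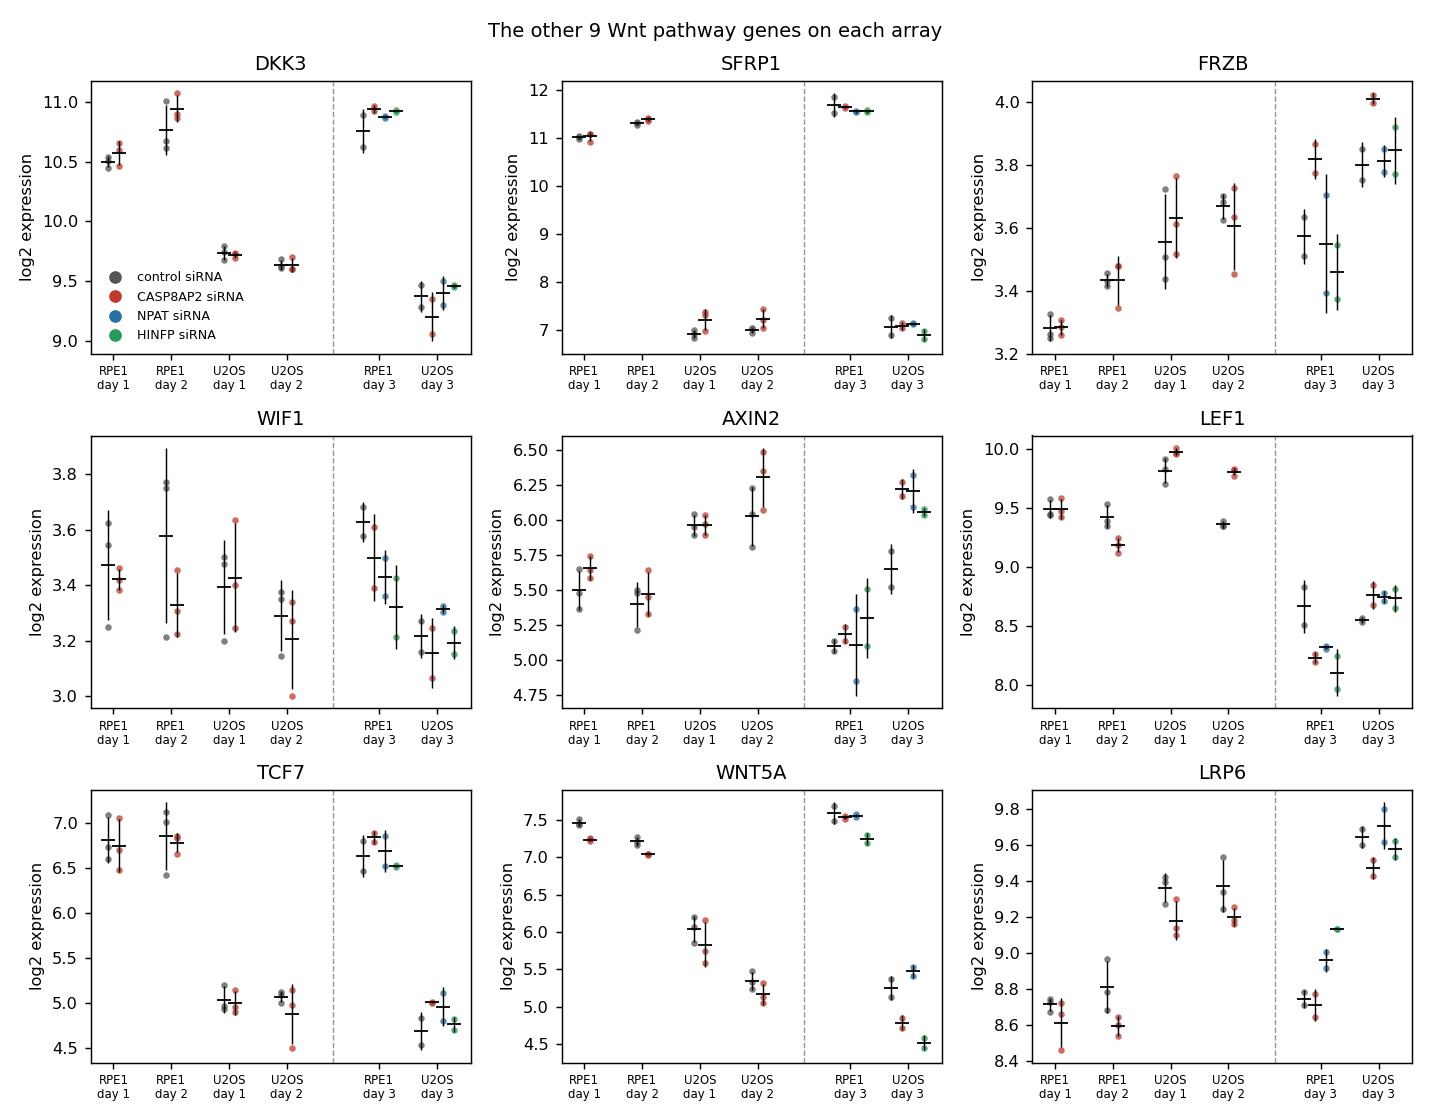
Log2 expression of the other 9 genes on each array (points), with group means (horizontal marks) and SD (vertical lines), by cell line and day. Each panel has its own scale, and the dashed line parts the sets that are taken to have been normalized apart. LEF1 on day 2 is higher with CASP8AP2 siRNA in U2OS cells (9.77 to 9.83) and lower in hTERT-RPE1 cells (9.12 to 9.24) than with control siRNA.

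With control siRNA alone, the lines differed in most of these genes. They were also grown in different media, and line and medium cannot be told apart here. Of the 10 genes, 9 differed on day 1 (48.7% of all genes), 8 on day 2 (50.8%) and 8 on day 3 (43.8%). DKK1 was 4.72 lower in U2OS than in hTERT-RPE1 cells on day 1 on the log2 scale (-4.72, adjusted p 6.18e-19, limma), which is 26.3-fold, and the differences on days 2 and 3, where the U2OS control arrays also served in the choice of DKK1, were -4.94 and -5.12. SFRP1 differed to a like extent, at -4.09, -4.30 and -4.60 on days 1, 2 and 3. WNT5A (-1.42, -1.86 and -2.33), TCF7 (-1.78, -1.78 and -1.95) and DKK3 (-0.76, -1.13 and -1.38) were also lower in U2OS cells on each day. LRP6 (0.65, 0.56 and 0.90) and AXIN2 (0.46, 0.63 and 0.55) were higher there. All of these passed (highest adjusted p 0.0143, AXIN2 on day 3, limma), and all except AXIN2 on day 3 passed in every alternative and without each array. The AXIN2 call on day 3 was lost without hTERT-RPE1 control replicate 2 (0.52) or U2OS control replicate 2 (0.43), with adjusted p from 0.00374 to 0.121. LEF1 was 0.33 higher in U2OS cells on day 1 (adjusted p 0.000148, limma) and differed by -0.06 and -0.12 on the later days.

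FRZB and WIF1 gave small line differences that moved with the scaling. FRZB was 0.28 and 0.24 higher in U2OS cells on days 1 and 2 (adjusted p 0.00459 and 0.0135, limma), and these calls were lost when arrays were centered on their medians (0.15 and 0.080, adjusted p 0.119 and 0.389), with adjusted p otherwise down to 0.00194 and 0.00301. WIF1 was 0.41 lower on day 3 (-0.41, adjusted p 0.00656, limma), a call lost without U2OS control replicate 1 (-0.36, adjusted p 0.0592, 0.00293 to 0.0592 over the alternatives). Under median centering LEF1 was also called on day 2, at -0.22 (adjusted p 0.00367, limma). On day 3 the FRZB difference of 0.23 missed the threshold (adjusted p 0.114, limma) and passed under cyclic loess (0.30, adjusted p 0.0455) and quantile normalization (0.30, adjusted p 0.0474), with adjusted p from 0.0455 to 0.386 over the alternatives. WIF1 was also called on day 2 under that centering, at -0.44 (adjusted p 0.00614, limma).

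**Figure D4:**
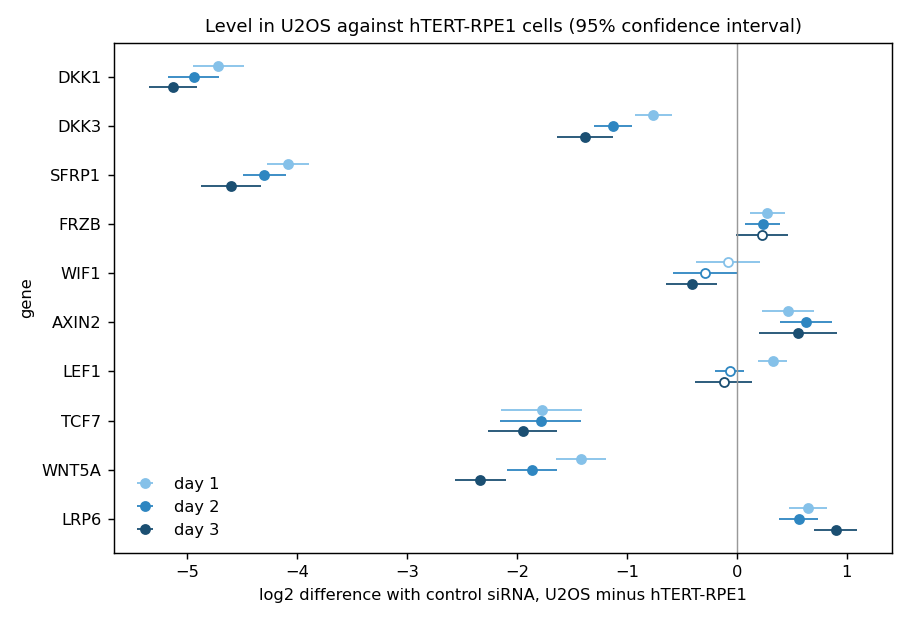
Log2 difference of each gene between the control groups of the lines, U2OS minus hTERT-RPE1, on days 1, 2 and 3, with bars for 95% confidence intervals. Filled circles passed the adjusted p threshold of 0.05 and open circles did not. DKK1 (-4.72 to -5.12) and SFRP1 (-4.09 to -4.60) stand far to the left of the other genes.

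From day 1 to day 2, control cells changed in 2 of the 10 genes in hTERT-RPE1 (10% of all genes). In U2OS cells WNT5A and LEF1 changed (13% of all genes), and DKK1 was not counted, as its value is a description only. WNT5A fell by 0.69 on the log2 scale in U2OS cells (adjusted p 0.000152, limma), from 5.85, 6.20 and 6.07 to 5.24, 5.48 and 5.33, and this and the fall of LEF1 passed in all alternatives. In hTERT-RPE1 cells DKK3 rose by 0.27 (adjusted p 0.0406) and SFRP1 by 0.29 (adjusted p 0.0454, both limma). The DKK3 call was lost when only the compared groups were fitted (adjusted p 0.253), with all 40 arrays in 1 fit (0.0535), with array weights (0.0878), without any of the day 1 arrays (0.27, 0.29 and 0.24 without replicates 1, 2 and 3) and without day 2 replicate 1 (0.15). The SFRP1 call was lost in the same 3 fits (0.0557, 0.0559 and 0.0711), under median centering (0.0644) and without any of its 6 arrays (0.28 to 0.31). Over all alternatives adjusted p ran from 0.0137 to 0.253 for DKK3 and from 0.02 to 0.133 for SFRP1.

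A wider list of 107 further Wnt pathway genes was drawn up from textbook knowledge with earlier results of these data known. Only 20 of them (18.7%) could be paired with a row of the table through symbols, so most of the pathway was not analysed here. In hTERT-RPE1 cells 0 to 2 of the 20 passed in each comparison (0, 1, 2, 1 and 1, in the order of CASP8AP2 on days 1, 2 and 3, NPAT and HINFP), beside 0.793%, 6.4%, 6.15%, 5.04% and 4.15% of all genes. In U2OS cells 0 passed on day 1 (5.87% of all genes), 7 on day 2 (24.9% of all genes) and 5 on day 3 (18.9%) under CASP8AP2 siRNA. NPAT siRNA changed 2 (8.13%) and HINFP siRNA 3 (9.43%). The median log2 fold change of the list in U2OS cells was 0.14, 0.097 and 0.10 on day 3 under CASP8AP2, NPAT and HINFP siRNA, beside 0.015, -0.0018 and -0.0087 for all genes. Under CASP8AP2 siRNA on days 1 and 2 it was 0.035 and 0.0029, beside 0.0050 and -0.012. In hTERT-RPE1 cells it was 0.013, -0.018, -0.033, -0.10 and -0.058 in the order above. Beside these the medians of all genes were -0.0040, -0.017, -0.032, -0.028 and -0.020.

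NKD1, a cytoplasmic feedback inhibitor that acts through Dishevelled, was the called gene with the largest rise in U2OS cells under CASP8AP2 siRNA on days 2 and 3 and under NPAT siRNA. It rose by 0.79 on day 2 under CASP8AP2 siRNA (from 6.09 ± 0.06 to 6.88 ± 0.23, SD, n = 3, adjusted p 3.83e-05, limma). On day 3 its control level was 5.03 ± 0.08, and it rose by 1.13 under CASP8AP2 siRNA (adjusted p 0.000617) and by 1.18 under NPAT siRNA (adjusted p 0.00112, both limma, n = 2). Under HINFP siRNA it rose by 0.58 (adjusted p 0.0457, limma), a call lost in 4 alternatives and without control replicate 1 (0.52), control replicate 2 (0.63) or HINFP replicate 1 (0.36), with adjusted p from 0.0123 to 0.291. In hTERT-RPE1 cells NKD1 differed from control by -0.25 to 0.02, and no value passed. KREMEN2, a receptor that acts with DKK1 and is named after its values were seen, also passed in all 4 of these U2OS comparisons, at 0.29, 0.58, 0.42 and 0.40. Of these 4 only the CASP8AP2 value on day 3 (adjusted p 0.00287, limma) passed without each array. KREMEN1, also a receptor on the list, did not pass in any of them, at -0.05, -0.10, 0.22 and -0.11 in the same order. Further list genes passed in U2OS cells under CASP8AP2 siRNA. On day 2 these were CTNNB1 (beta-catenin, -0.23, adjusted p 0.00459), MMP7 (0.34, 0.0368) and PPARD (0.34, 0.00192, all limma). On day 3 they were EP300 (0.33, adjusted p 0.0278) and PPARD (0.54, 0.000886, both limma). The CTNNB1, MMP7 and EP300 calls were each lost when only the compared groups were fitted (0.0525, 0.123 and 0.0916).

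LRP5, the co-receptor related to LRP6, rose by 0.78 in U2OS cells under HINFP siRNA (adjusted p 0.00142, limma) and passed in every alternative. The largest called falls in U2OS cells were RSPO3, a secreted enhancer of Wnt signaling, at -0.41 on day 2 (adjusted p 0.00494, limma), and the growth factor BMP4 at -1.22 on day 3 (adjusted p 0.0106, limma), both under CASP8AP2 siRNA. The BMP4 call was lost when only the compared groups were fitted (0.0686), without control replicate 2 (-1.01) and without CASP8AP2 replicate 1 (-0.70), with adjusted p from 6.76e-05 to 0.132.

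In hTERT-RPE1 cells the calls by the same rule were BTRC, which marks beta-catenin for degradation, at 0.23 under CASP8AP2 siRNA on day 2 (adjusted p 0.0377), TNFRSF19 at 0.46 (adjusted p 0.0273) and the factor TCF7L1 at -0.60 (adjusted p 0.0278) under CASP8AP2 siRNA on day 3. FOSL1 followed at -0.44 under NPAT (adjusted p 0.0462) and KREMEN1, a partner receptor of DKK1, at -0.73 under HINFP siRNA (adjusted p 0.00718, all limma). All 5 calls were lost when only the compared groups were fitted (adjusted p 0.205, 0.197, 0.152, 0.199 and 0.104 in this order) and without at least 1 array. BTRC also rose in U2OS cells under the same siRNA and day, by 0.34 (adjusted p 0.000452, limma), and that call passed in every alternative. In hTERT-RPE1 cells BTRC was 0.20 without CASP8AP2 replicate 2, TNFRSF19 was 0.29 without CASP8AP2 replicate 2, TCF7L1 was -0.38 without control replicate 1, FOSL1 was -0.30 without control replicate 1 and KREMEN1 was -0.64 without HINFP replicate 1, each past the threshold no longer.

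**Figure D5:**
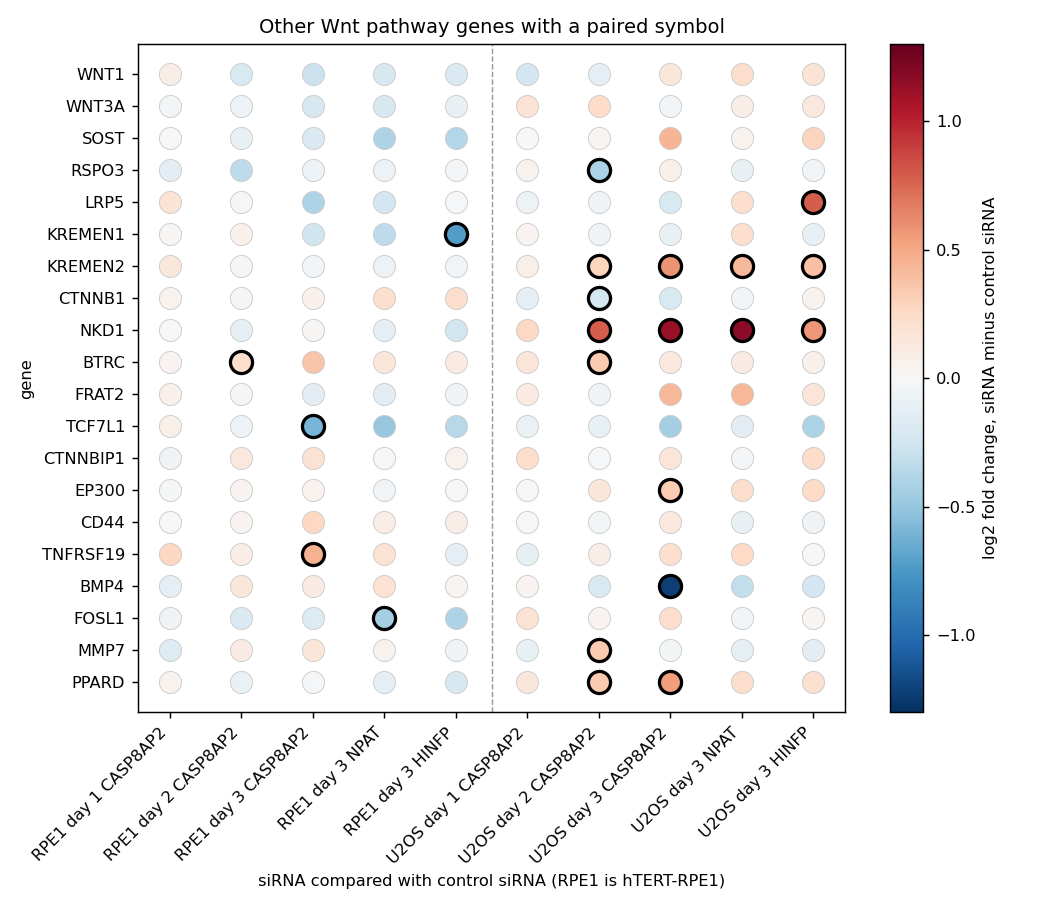
Log2 fold change of 20 further Wnt pathway genes (rows) in the 10 comparisons with control siRNA (columns), as color. A thick black ring marks an adjusted p under 0.05, and the dashed line parts the cell lines. NKD1 and KREMEN2 carry a ring in 4 of the 5 U2OS columns and in no hTERT-RPE1 column.

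The genes whose pattern was most like that of DKK1 were sought by Pearson's r over the 8 group means of a set, among genes with a paired symbol whose means spanned at least 1 on the log2 scale. On days 1 and 2 these were TGFBI (0.994), APAF1 (0.990) and PAPPA (0.989) of 531 genes. On day 3 they were RRBP1 (0.982), ECE1 (0.978) and ITPR3 (0.976) of 567 genes. The points share the arrays and the large difference between the lines, and no correlation within a line was computed. Among the other 9 members r was highest for SFRP1 on days 1 and 2 (0.964) and for TCF7 on day 3 (0.952), and lowest for LRP6 in both sets (-0.965 and -0.888).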

How the data were processed

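Total RNA of whole cultures was measured on Affymetrix Human WT arrays. Per the labels the authors processed the arrays with RMA. The deposited values are log2 expression per Ensembl gene, and days 1 and 2 and day 3 are taken as 2 sets normalized apart. The study's methods name affy, limma and a custom ENSG probe definition, whose version and genome build are not given in the sources used here. RMA brings the arrays of a set to a like distribution (medians of 5.44 to 5.67 and of 5.23 to 5.38), so changes are relative to the other genes, and changes near the bottom of the range are compressed. No column of values was left unused. Tables of the authors' own fold changes and p-values were not used.

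Groups were taken from the labels. Each set was fitted with limma 3.58.1 in R 4.3.3 (a mean per group, 16 and 8 residual degrees of freedom, two-sided moderated tests), with Benjamini-Hochberg adjustment over 22069 genes in each of 28 comparisons and a threshold of 0.05. The script was tested on simulated data. The table gives Ensembl identifiers, and symbols other than those of the members came from the part of the study's screen table used here, which paired 1924 of 22069 genes (8.72%). The members, the lists and the tests were chosen with earlier results of these data known. All 10 members were named. Of the wider list, the called genes with the largest rise and the largest fall in each comparison were named, where treated and control arrays did not overlap. KREMEN2, CTNNB1, MMP7, PPARD and EP300 were named outside this rule, after their values were seen.

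There were 9 alternatives to the fit, and each array was also left out in turn. They were a fit of the compared groups alone, all 40 arrays in 1 fit, median centering, cyclic loess, quantile normalization, only genes above the median level, an intensity trend, array weights and a replicate block. Deviations of same-numbered arrays from their group means had correlations of -0.102 to 0.205. In no group of 3 pairs on days 1 and 2 were all over 0.1. On day 3 each comparison holds only 2 pairs, whose correlations are equal by construction, and those of CASP8AP2 in hTERT-RPE1 (0.205) and of CASP8AP2 (0.139) and NPAT (0.141) in U2OS cells were over 0.1. The numbers were not treated as pairs.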

Additional observations from a re-analysis of the deposited data

Results flagged for a closer look

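The effects of an siRNA differed between the lines, by a test of the difference itself, in 5 cases. For DKK1 the difference of effects (U2OS minus hTERT-RPE1, log2) was 1.40 for NPAT siRNA and 2.10 for HINFP siRNA on day 3, and the U2OS control arrays in these tests also served in the choice of DKK1. For LEF1 it was 0.69 for CASP8AP2 siRNA on day 2, 0.65 for CASP8AP2 siRNA on day 3 and 0.75 for HINFP siRNA on day 3. The day 2 value of LEF1 and both DKK1 values passed in all alternatives, and the day 3 values of LEF1 did not. In each case the targeted gene was lowered less in hTERT-RPE1 cells, and the part of this was not tested. The groups held 2 or 3 arrays, too few to test any array as an outlier.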

How the results depend on the processing

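No value that passed under either setting changed direction in any alternative; a change of sign between values that passed under neither was not counted. Counts of the 10 genes are over all comparisons of a kind. Against control siRNA on days 1 and 2, where 2 values passed, the count was 1 when only the compared groups were fitted, 1 with all 40 arrays in 1 fit, 4 with cyclic loess, 5 among genes above the median level, 4 with an intensity trend and 4 with array weights. With the replicate block it was 1, as LEF1 in hTERT-RPE1 cells on day 2 was lost. On day 3, where 9 passed, it was 5 when only the compared groups were fitted. Fitting the compared groups alone also gave 3 in place of 5 for differences between the lines, 1 in place of 4 for siRNAs against each other, 2 in place of 5 for control day 2 against day 1, and 13 in place of 22 for the wider list, with fewer residual degrees of freedom. For control day 2 against day 1 the count was 3 with all 40 arrays and 3 with array weights. Where DKK1 in U2OS cells passed, it is included in the counts between control days, although its value is read as a description only. For the change of the CASP8AP2 effect between days, where 0 passed, it was 1 (LEF1) with cyclic loess, quantile normalization, genes above the median level, an intensity trend and array weights. The replicate block gave 8 in place of 9 on day 3 and 19 in place of 22 for the wider list. With each array left out, the counts were 1 to 4 and 5 to 9 against control on days 1 and 2 and on day 3, 3 to 6 between lines, 0 to 1 between days of the effect, 24 to 26 between control lines (25 with all arrays), 3 to 5 between control days, 3 to 4 between siRNAs and 17 to 23 for the list. The group with the highest mean stayed the same in 17 of 20 orders (10 genes, 2 sets) under median centering and under loess, and in 20 under quantile normalization. Scaling moved the median of all genes against control by no more than -0.050 to 0.038. Groups of 2 or 3 arrays, and the low signal of FRZB and WIF1, limit what can be detected.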
